A study of Mus musculus with 9 samples.

Results

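The interstitial matrix of the embryonic gut holds, besides collagens, a set of secreted glycoproteins, proteoglycans and elastic fibre proteins, and 35 such genes are described here across 9 hindgut arrays. The genes were listed by function, with earlier results of these data known. Of the 35, 33 were measured among 18193 genes, and Fbn1 and Efemp2 were not analysed here. By role the 33 are 2 genes of the hyaluronan network, 5 small leucine-rich proteoglycans, 15 adhesive and matricellular glycoproteins, 7 genes of the elastic fibre and its microfibrils, and 4 fibulins.

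RNA of the dissected terminal colon was hybridised to Affymetrix MOE430 version 2 arrays, 3 for each group of mouse embryos. The groups were wild type, Ednrb null embryos (Ednrb -/-, both copies a lacZ allele), and Ednrb NCC null embryos, whose genotype label reads Ednrb-FLEX(NCC-/-) and whose description places the mutation in NCC cells. The stage was embryonic day 14 in the sample labels and 14.5 in the series text. The labels name neither the driver of the NCC deletion nor the strain, and do not say whether an array held 1 embryo or a pool, and the p-values therefore reflect the spread among these arrays alone, which may be partly technical.

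Endothelin receptor B, the product of Ednrb, is needed by enteric neural crest cells to reach the end of the gut. These precursors of enteric neurons and glia migrate through gut mesenchyme, where fibronectin and tenascin-C form adhesive or modulating substrates and versican binds hyaluronan into a hydrated gel. Collagen fibrils are spaced by small leucine-rich proteoglycans such as decorin and lumican, and elastic fibres form when elastin is deposited on fibrillin microfibrils with the help of fibulins and is cross-linked by lysyl oxidase. Most of these proteins are made by fibroblasts and smooth muscle.

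All values below are log2 intensities of the brightest probe set of a gene, and a difference of 1 is 2-fold. A gene is called where the adjusted p of limma, corrected by Benjamini-Hochberg over all 18193 genes, is under 0.05, and it is dim where its mean over the 9 arrays lies in the lowest 40% of genes, under 7.23. RMA, by which the values were made, pulls dim differences toward 0. Median intensity per array was 111.7 to 115.7. Hoxd13, a gene of the posterior gut, lay at 11.90 to 12.46 and the epithelial gene Epcam at 12.40 to 13.05. The smooth muscle gene Acta2 lay at 14.14 to 14.57. These markers of the labelled tissue were thus bright on all 9 arrays. Not all markers checked were bright: Hoxa13, at 5.88 to 6.84, and the epithelial gene Cdx2, at 6.35 to 7.35, were dim. Ednrb had 10.95 to 11.08 in wild type, 8.77 to 9.40 in Ednrb null and 11.04 to 11.32 in Ednrb NCC null; whether its probes lie in the deleted part is not known. The log2 ratio of the 3' to the 5' control of Actb, a measure of RNA integrity, lay at 0.80 to 0.90 in the Ednrb null arrays, which did not overlap with the other 6. Wild type had 1.08 to 1.32 and Ednrb NCC null 1.03 to 1.40. The same ratio for Gapdh overlapped between the groups, at 0.09 to 0.15 in Ednrb null, 0.14 to 0.27 in wild type and 0.14 to 0.34 in Ednrb NCC null. In RNA of whole tissue, fewer cells of a type and less RNA per cell cannot be told apart.

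In each comparison most of the 33 matrix genes, like most of all genes, did not pass. In Ednrb null against wild type 1 was higher, 1 was lower and 31 did not pass, where 5.04% of all genes were called (2.65% higher, 2.39% lower). In Ednrb NCC null against wild type 1 was higher, 2 were lower and 30 did not pass, where 4.96% of all genes were called (3.7% higher, 1.25% lower). Between the mutants 4 were higher and 2 lower in Ednrb null, and 27 did not pass, where 6.52% of all genes were called (2.07% higher, 4.46% lower). The median difference of the 33 genes was -0.142, -0.052 and 0.054 in these comparisons, beside 0.039, 0.024 and 0.009 over all genes. Groups of 3 arrays did not overlap for 10, 6 and 12 members, where 22.6%, 21.9% and 24.2% of all genes did not. Both mutants were set against the same 3 wild type arrays. In all, 7 members were called in at least 1 comparison and 26 in none.

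**Figure D1:**
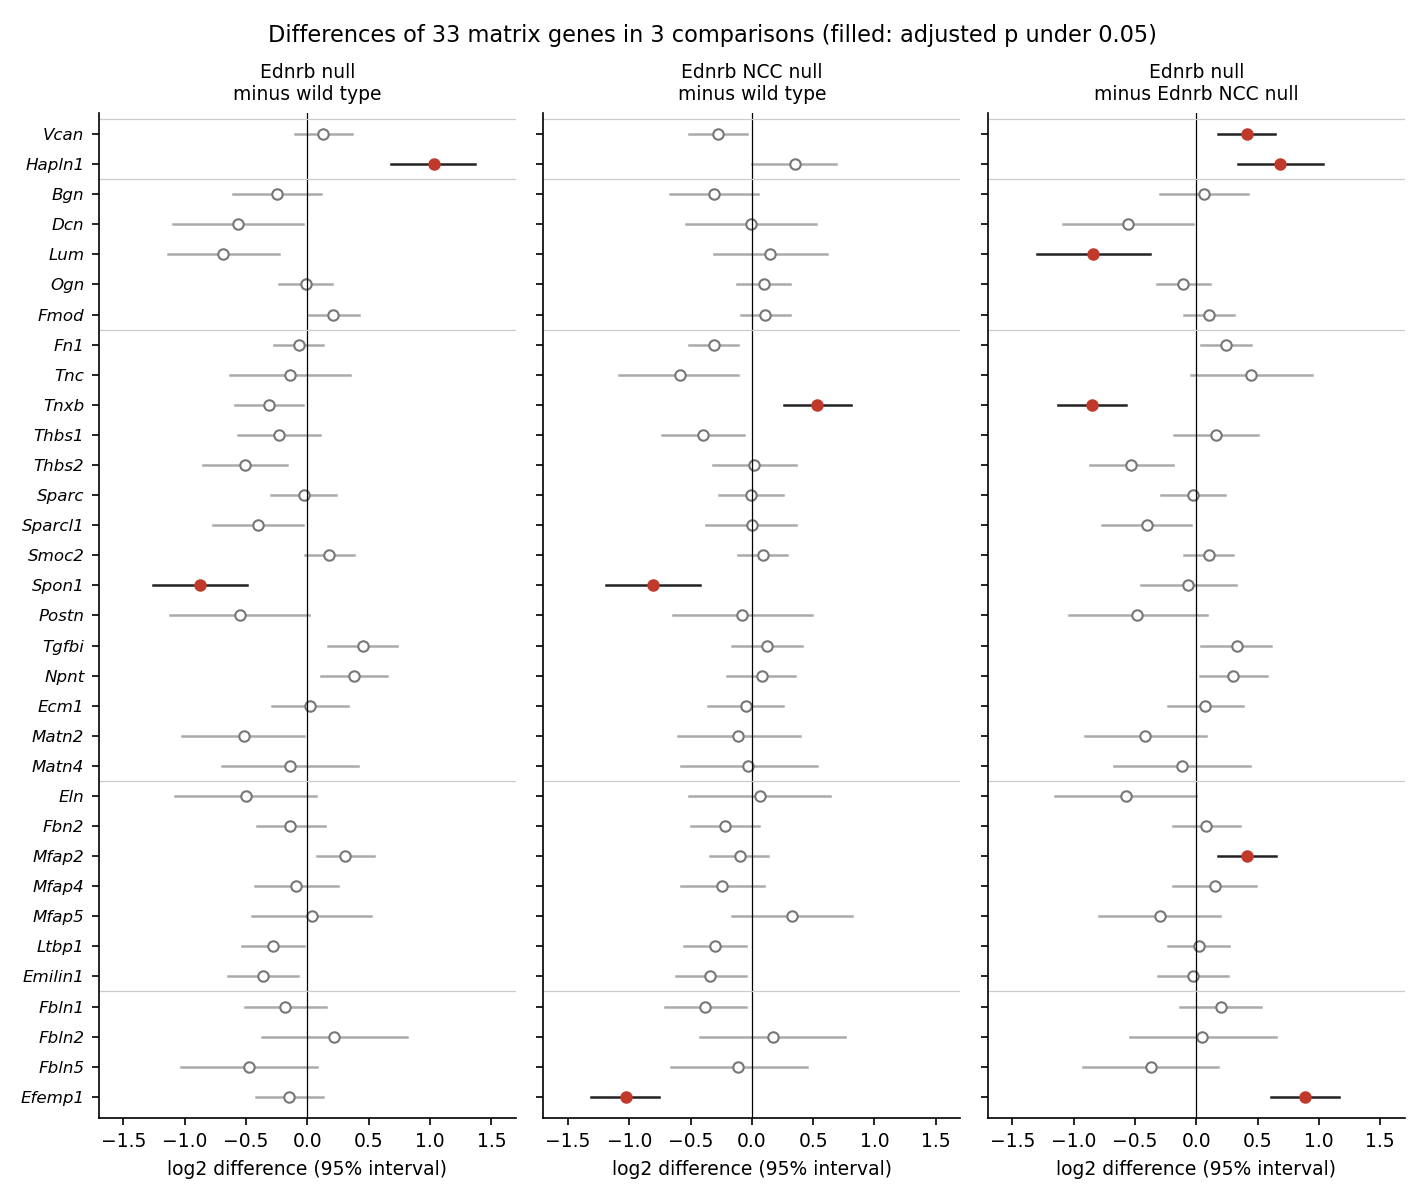
Differences of the 33 matrix genes in 3 comparisons, on the log2 scale with 95% intervals of the limma fit; rows are genes in the order of their roles, parted by grey lines, and filled points have an adjusted p under 0.05. Most points lie between -0.5 and 0.5, and the filled points are 2, 3 and 6 in number.

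The members whose differences the following account turns on include Hapln1 and Efemp1, which had the smallest p of the members in the comparisons of Ednrb null and of Ednrb NCC null with wild type, and Thbs2, of a set that was low together in several arrays. The 250 bases before their starts are shown for these 3 genes, since promoters of members that differ or move together bear on their regulation; they come from RefSeq on GRCm38.p6, where 21 of the 33 members had a promoter listed. Capitals mark matches, on either strand, to the AP-1 motif TGANTCA, the TEAD motif GGAATG, the GC box GGGCGG, the TATA box TATAAA, the SOX motif ACAATG and the SMAD motif CAGACA.
Hapln1, chr13:89540386-89540635, plus strand: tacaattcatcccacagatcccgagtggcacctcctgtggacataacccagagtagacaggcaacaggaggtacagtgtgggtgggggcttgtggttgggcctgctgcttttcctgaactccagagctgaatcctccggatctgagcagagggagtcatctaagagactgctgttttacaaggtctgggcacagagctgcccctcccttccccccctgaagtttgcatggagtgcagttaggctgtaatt
Efemp1, chr11:28852955-28853204, plus strand: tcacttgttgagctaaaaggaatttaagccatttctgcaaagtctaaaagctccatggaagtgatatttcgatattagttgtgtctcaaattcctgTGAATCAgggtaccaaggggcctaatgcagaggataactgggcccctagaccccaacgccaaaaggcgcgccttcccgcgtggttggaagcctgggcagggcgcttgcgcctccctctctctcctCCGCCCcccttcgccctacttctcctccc
Thbs2, chr17:14694263-14694512, minus strand: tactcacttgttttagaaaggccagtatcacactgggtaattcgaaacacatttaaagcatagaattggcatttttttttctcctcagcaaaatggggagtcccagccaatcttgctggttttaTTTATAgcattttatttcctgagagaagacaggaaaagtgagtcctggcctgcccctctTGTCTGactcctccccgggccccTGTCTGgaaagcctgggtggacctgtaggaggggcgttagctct
The Hapln1 window held none of the 6 motifs. The Efemp1 window held an AP-1 and a GC box match, and the Thbs2 window a TATA box match and 2 SMAD matches. Among the 29 promoters of the 21 members, 44.8% had a GC box, 34.5% a SMAD match, 20.7% a TATA box, 10.3% each an AP-1 and a TEAD match and 3.45% a SOX match; over all 32851 listed windows of this length the shares were 32.7%, 17.1%, 12.4%, 6.75%, 12.6% and 10.7%. A match is a run of letters and no evidence of binding.

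Hapln1, the link protein that fastens versican and aggrecan to hyaluronan, was the one member higher in Ednrb null. Its log2 intensity was 8.53, 8.16 and 8.33 in Ednrb null 29, 37 and 41, 7.19, 7.71 and 7.03 in wild type 1B, 1C and 1D, and 7.69, 7.59 and 7.69 in Ednrb NCC null 2, 5 and 6. Every Ednrb null array lay above the other 6, while the remaining groups overlapped. The level rose 2.04-fold in Ednrb null against wild type (difference 1.03, SE 0.16, limma adjusted p = 0.00353) and was 1.60-fold higher than in Ednrb NCC null (difference 0.68, adjusted p = 0.0266). In Ednrb NCC null against wild type the difference was 0.35 (95% interval 0 to 0.69, adjusted p = 0.252).

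The other 3 probe sets of Hapln1, all dim, gave differences of 0.96 to 1.08 in Ednrb null against wild type, each with an adjusted p of 0.000373 to 0.00508 over all probe sets. Between the mutants they gave 0.49 to 0.56, and in Ednrb NCC null against wild type 0.40 to 0.58, of which the brightest of the 3 passed (0.58, adjusted p = 0.0214). The rise against wild type was called with any 1 array left out (adjusted p = 0.000233 to 0.0198) but not once the Actb ratio was a covariate (difference 1.0, adjusted p = 0.144). Between the mutants, leaving out any 1 of Ednrb null 29, Ednrb null 41 or the 3 arrays of Ednrb NCC null ended the call (adjusted p = 0.0593 to 0.111).

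Hapln1 is also a cartilage gene, and some markers of cartilage were higher in the same arrays. Of 10 cartilage markers 3 rose in Ednrb null against wild type, among them the dim secreted factor Cytl1 (difference 0.59, adjusted p = 0.0169) and the collagen Col9a1 (0.73, 0.026), and 4 were higher than in Ednrb NCC null. The summed intensity of the 10 was 2800 to 3380 in Ednrb null, 2040 to 2460 in wild type and 1870 to 2170 in Ednrb NCC null. Of the 10 differences between the mutants 6 were positive and 4 negative. Of the 10 markers 7 were dim, among them Acan, Matn1, Comp and Matn3, which define cartilage matrix. Ednrb null overlapped with wild type for Acan (5.44 to 5.52 against 5.31 to 5.71), Comp (5.30 to 5.64 against 5.44 to 5.71) and Matn1 (3.28 to 3.42 against 3.18 to 3.45). For Matn3 it lay above wild type (5.38 to 5.54 against 5.18 to 5.27). The part of cartilage RNA in the Hapln1 difference was not tested.

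Vcan encodes versican, the large hyaluronan-binding proteoglycan. It had 13.21, 13.10 and 12.96 in Ednrb null 29, 37 and 41, 12.81, 12.74 and 12.49 in Ednrb NCC null 2, 5 and 6, and 12.93, 13.07 and 12.88 in wild type 1B, 1C and 1D. The Ednrb NCC null arrays were the lowest 3 of the 9. Vcan was 1.33-fold higher in Ednrb null than in Ednrb NCC null (difference 0.41, SE 0.11, adjusted p = 0.043), whereas neither mutant differed from wild type past the threshold (differences 0.13 and -0.28). The next brightest probe sets gave 0.38 and 0.37 between the mutants, and 5 dim ones -0.16 to 0.13. Leaving out any 1 of Ednrb null 29, 37 and 41, Ednrb NCC null 5 and 6 and wild type 1B ended the call (adjusted p = 0.0575 to 0.176), as did fitting the 2 groups alone (0.0539), averaging all probe sets (difference 0.16, adjusted p = 0.289) and the Actb covariate, under which the difference stayed at 0.41 while its SE was 0.18 (adjusted p = 0.332).

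**Figure D2:**
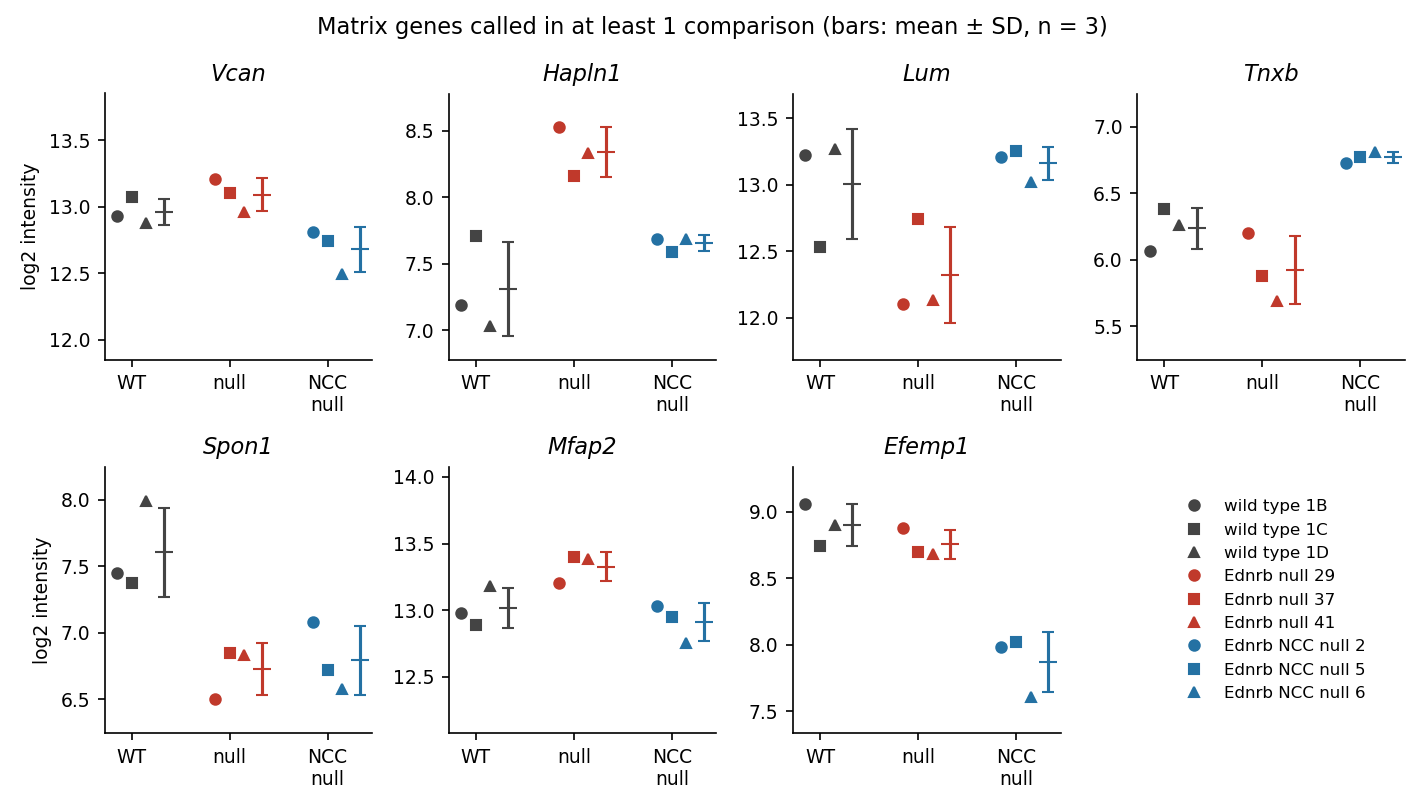
Log2 intensity by array of the 7 matrix genes called in at least 1 comparison; each point is an array, bars are the mean ± SD of 3 arrays, and every panel spans 2 log2 units. Hapln1 is highest in the 3 Ednrb null arrays, Efemp1 lowest in the 3 Ednrb NCC null arrays, and Spon1 lower in both mutants than in wild type.

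Efemp1, which encodes fibulin-3, a secreted glycoprotein of elastic tissues, was the member that differed most firmly in Ednrb NCC null. Its log2 intensity was 7.98, 8.02 and 7.61 in Ednrb NCC null 2, 5 and 6, 9.06, 8.74 and 8.90 in wild type 1B, 1C and 1D, and 8.88, 8.70 and 8.68 in Ednrb null 29, 37 and 41. The Ednrb NCC null arrays lay below the other 6, and the other groups overlapped. Efemp1 fell 2.04-fold in Ednrb NCC null against wild type (difference -1.03, SE 0.13, adjusted p = 0.00141) and was 1.85-fold higher in Ednrb null than in Ednrb NCC null (difference 0.89, adjusted p = 0.00282). In Ednrb null against wild type the difference was -0.15 (95% interval -0.42 to 0.13).

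The fall of Efemp1 was called in every alternative run, including each array left out (adjusted p = 0.000792 to 0.00798). The difference between the mutants held with any 1 array left out (adjusted p = 0.00158 to 0.0161) and missed the threshold with the Actb covariate (difference 1.01, adjusted p = 0.052). Only 1 probe set reads this gene. Mesothelial markers were higher beside it, with sums of 3620 to 4170 in Ednrb NCC null, 3150 to 3610 in Ednrb null and 792 to 2910 in wild type, where wild type 1B was lowest. Of the 8, of which Lrrn4 and Gpm6a were dim, only Msln passed, in Ednrb NCC null against wild type (0.99, adjusted p = 0.0223), and their part in the Efemp1 level was not tested.

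The other measured fibulins, which tie elastin and basement membranes to other matrix proteins, were not called in any comparison by their brightest probe sets. Fbln1 had 11.40, 11.21 and 11.76 in wild type 1B, 1C and 1D, 11.23, 11.36 and 11.25 in Ednrb null 29, 37 and 41 and 11.25, 11.20 and 10.78 in Ednrb NCC null 2, 5 and 6, with the groups overlapping throughout (differences from wild type -0.18 and -0.38, adjusted p = 0.572 and 0.184). A second, bright probe set of Fbln1 differed from it, with 9.59, 9.70 and 9.83 in Ednrb null, below the 10.30, 10.17 and 10.67 of wild type, and 10.21, 9.91 and 9.64 in Ednrb NCC null. Over all probe sets it was lower in Ednrb null by 0.67 on the log2 scale (difference -0.67, adjusted p = 0.0368) and not called in Ednrb NCC null (-0.46, 0.156), while the remaining, dim probe set gave -0.17 and -0.19. Fbln2 and Fbln5 varied most within wild type, as described below.

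Spon1, encoding F-spondin, an adhesive protein known from axon guidance, was the one member called in both mutants against wild type. It had 7.45, 7.37 and 7.99 in wild type 1B, 1C and 1D, 6.50, 6.85 and 6.83 in Ednrb null 29, 37 and 41 and 7.08, 6.72 and 6.58 in Ednrb NCC null 2, 5 and 6. All 6 mutant arrays lay below the 3 wild type arrays. The level fell by 0.88 in Ednrb null (SE 0.18, adjusted p = 0.0164) and by 0.81 in Ednrb NCC null (SE 0.18, adjusted p = 0.0256), and the mutants differed by -0.07 (95% interval -0.45 to 0.32).

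Spon1 is dim, and none of its other probe sets passed. They gave -0.41, -0.03 and -0.03 in Ednrb null and 0.09, 0.48 and -0.08 in Ednrb NCC null, with adjusted p = 0.191 to 0.949 over all probe sets. With the mean of all probe sets the differences were -0.34 (adjusted p = 0.18) and -0.08 (adjusted p = 0.81). The call in Ednrb null was lost without Ednrb null 29 (difference -0.76, adjusted p = 0.0681) and under the Actb covariate (-0.75, 0.379), and the call in Ednrb NCC null without Ednrb NCC null 5 (-0.77, 0.104), Ednrb NCC null 6 (-0.70, 0.116) or wild type 1B (-0.88, 0.0585) and with the 2 groups alone (0.0509). Spon1 moved beside the enteric neural crest markers, of which 6 of 8 fell in Ednrb null and 5 of 8 in Ednrb NCC null; their summed intensity was 4840 to 6650 in wild type, 1740 to 2370 in Ednrb null and 4000 to 4350 in Ednrb NCC null. Ednrb itself is among these markers and adds to the gap between the mutants in this sum, with 11.04 to 11.32 in Ednrb NCC null and 8.77 to 9.40 in Ednrb null. The mean log2 level of the 8, less weighted by bright genes, was 8.44 to 9.29 in wild type, 6.94 to 7.47 in Ednrb null and 7.32 to 7.59 in Ednrb NCC null. Of the 8, 3 were dim (Cdh19, Elavl4 and Tubb3), and the part of lost crest cells in the Spon1 levels was not tested.

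**Figure D3:**
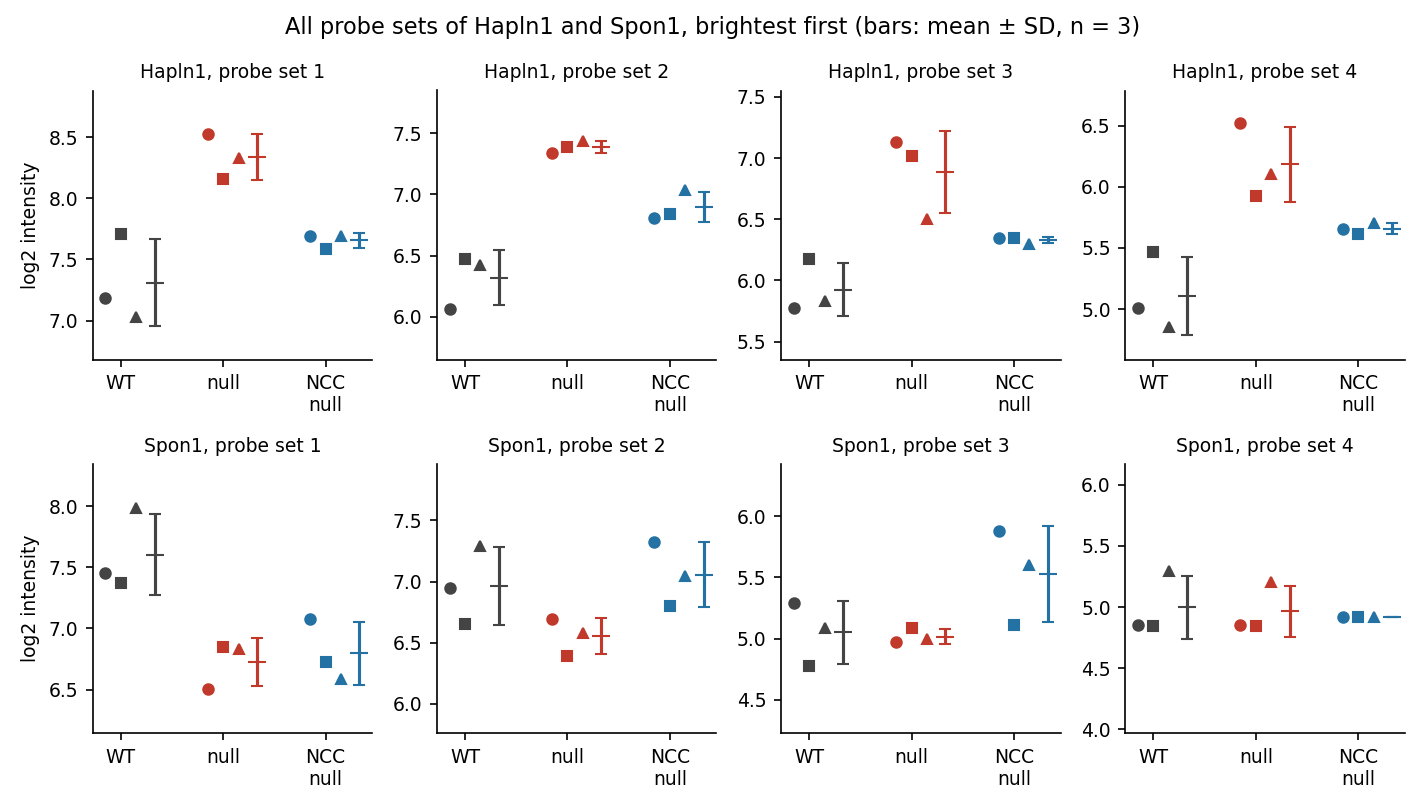
Log2 intensity by array for the 4 probe sets each of Hapln1 (upper row) and Spon1 (lower row), ordered from the brightest; points are arrays, bars are the mean ± SD of 3 arrays, and each panel spans 2.2 log2 units. The Ednrb null arrays are highest for each Hapln1 probe set, while Spon1 is lower in both mutants in its brightest probe set and, in Ednrb null with overlap, in the second.

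Tnxb encodes tenascin-X, a glycoprotein that binds fibrillar collagen. Its log2 intensity was 6.73, 6.77 and 6.81 in Ednrb NCC null 2, 5 and 6, 6.07, 6.38 and 6.26 in wild type 1B, 1C and 1D, and 6.2, 5.88 and 5.69 in Ednrb null 29, 37 and 41. The Ednrb NCC null arrays were the highest of the 9, and wild type and Ednrb null overlapped. Tnxb was 1.80-fold lower in Ednrb null than in Ednrb NCC null (difference -0.85, SE 0.13, adjusted p = 0.00356), a call that held with any 1 array left out (adjusted p = 0.00249 to 0.0222) and missed the threshold with the Actb covariate (-0.99, 0.0563). It rose by 0.53 in Ednrb NCC null against wild type (adjusted p = 0.0381), a call that ended when 1 array of Ednrb NCC null, wild type 1B or wild type 1D was left out (adjusted p = 0.0563 to 0.143), with centred arrays (0.0621) and with quantile normalization (0.0915). Tnxb is dim and has 1 probe set.

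Tenascin-C and fibronectin, substrates of migrating crest cells, had lower levels in Ednrb NCC null that were not called. Tnc had 9.98, 8.96 and 9.24 in Ednrb NCC null 2, 5 and 6 and 9.82 to 10.15 in wild type (difference -0.59, 95% interval -1.08 to -0.11, adjusted p = 0.161). Ednrb NCC null 2 thus lay within the wild type range. Without it the difference was -0.89, and between the mutants 0.75. As it was the highest array of its group, its omission must widen both differences, so the calls this gave are no test. With the Actb covariate and all arrays the difference from wild type was -0.66 and passed (adjusted p = 0.0371). In Ednrb null the difference of Tnc was -0.14 (95% interval -0.63 to 0.35).

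Fn1 had 12.50, 12.22 and 12.27 in Ednrb NCC null 2, 5 and 6, 12.69, 12.58 and 12.66 in wild type 1B, 1C and 1D and 12.54, 12.53 and 12.66 in Ednrb null 29, 37 and 41. The Ednrb NCC null arrays were the lowest, with a difference of -0.31 from wild type (SE 0.09, adjusted p = 0.0827). A second probe set of Fn1, singled out after its values were seen, had 8.14, 8.26 and 8.06 in Ednrb NCC null against 9.16, 8.92 and 8.72 in wild type and 9.13, 8.98 and 8.85 in Ednrb null. Over all probe sets it fell by 0.78 in Ednrb NCC null (adjusted p = 0.00631) and was 0.83 higher in Ednrb null than in Ednrb NCC null (adjusted p = 0.00427). With the mean of both probe sets Fn1 passed against wild type (difference -0.55, adjusted p = 0.00503) and between the mutants (0.54, adjusted p = 0.00445). The brightest probe set alone passed against wild type with centred arrays (-0.36, 0.045), quantile normalization (-0.37, 0.0464), array weights (-0.33, 0.0469) and the Actb covariate (-0.33, 0.0422). Its difference was -0.40 without Ednrb NCC null 2, the highest array of its group, whose omission must widen it. In Ednrb null against wild type the 2 probe sets gave -0.07 and 0.05.

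Among the other matricellular glycoproteins no difference was called. Tgfbi, an integrin-binding protein induced by TGF-beta, had 13.04, 12.91 and 12.87 in Ednrb null 29, 37 and 41, above the 12.46, 12.67 and 12.34 of wild type 1B, 1C and 1D, and 12.88, 12.38 and 12.57 in Ednrb NCC null 2, 5 and 6. The Ednrb null arrays did not overlap with wild type, and the difference was 0.45 (SE 0.13, adjusted p = 0.0778), with other probe sets at 0.34 to 0.73. It passed with the mean of all probe sets (0.48, 0.0441) and with array weights (0.46, 0.0439). It also passed without Ednrb NCC null 2, which enters only through the shared spread (0.45, 0.044). Without wild type 1C, the highest wild type array, the difference was 0.54. That omission must raise it, so the call it gave is no test. Npnt, the nephronectin of basement membranes, had 10.19 to 10.34 in Ednrb null and 9.74 to 10.05 in wild type (difference 0.38, adjusted p = 0.118). For Smoc2, a calcium-binding relative of Sparc, the Ednrb null arrays also lay above wild type, by 0.18 (adjusted p = 0.304) in the brightest probe set, and a second probe set gave 0.53 with overlap (adjusted p = 0.0661 over all probe sets).

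Several members showed differences close to 0. Over all members and comparisons the median width of the 95% intervals was 0.67. For Sparc, a collagen-binding protein, the difference was -0.03 in Ednrb null (95% interval -0.30 to 0.23) and -0.01 in Ednrb NCC null (-0.27 to 0.25). Ogn, the proteoglycan osteoglycin, had -0.01 (-0.23 to 0.20) and 0.10 (-0.12 to 0.31). Ecm1 had 0.02 (-0.29 to 0.33) and -0.05 (-0.36 to 0.25). For 6 members the intervals of all 3 comparisons lay within 0.5 of 0. The matrilin Matn4 was less precise, at -0.14 (-0.70 to 0.41) and -0.03 (-0.58 to 0.53).

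Of the elastic fibre and microfibril genes only Mfap2 was called. Mfap2, a microfibril protein that binds fibrillin, had 13.20, 13.40 and 13.38 in Ednrb null 29, 37 and 41, 13.03, 12.95 and 12.75 in Ednrb NCC null 2, 5 and 6 and 12.98, 12.89 and 13.18 in wild type 1B, 1C and 1D. The Ednrb null arrays lay above the other 6. Mfap2 was 1.33-fold higher in Ednrb null than in Ednrb NCC null (difference 0.41, SE 0.11, adjusted p = 0.0417) and 0.31 above wild type without passing (adjusted p = 0.133). Its dimmer probe set gave 0.19 between the mutants. Leaving out 1 array of Ednrb null, Ednrb NCC null 5 or 6 or wild type 1B ended the call (adjusted p = 0.057 to 0.17), as did averaging both probe sets (0.30, 0.0531) and the Actb covariate (difference 0.44, SE 0.18, adjusted p = 0.297).

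Emilin1 and Ltbp1 had lower levels in both mutants that did not pass. Emilin1, a glycoprotein at the surface of elastic fibres, had 11.08, 11.16 and 11.05 in wild type 1B, 1C and 1D, 10.86, 10.47 and 10.87 in Ednrb null 29, 37 and 41 and 10.87, 10.52 and 10.89 in Ednrb NCC null 2, 5 and 6. All 6 mutant arrays were below wild type, by -0.36 (adjusted p = 0.149) and -0.34 (adjusted p = 0.174). Ltbp1, which stores latent TGF-beta on microfibrils, had 10.14, 9.93 and 10.09 in wild type, 9.86, 9.75 and 9.71 in Ednrb null and 10.01, 9.64 and 9.61 in Ednrb NCC null. Its differences were -0.28 (adjusted p = 0.208), with no overlap, and -0.30 (adjusted p = 0.166), with overlap. Without Ednrb NCC null 2, the highest array of its group, the latter was -0.43. That omission must widen it, so the call it gave is no test. Fbn2, the fibrillin of embryonic microfibrils, differed by -0.14 (95% interval -0.41 to 0.14) and -0.22 (-0.50 to 0.06).

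Lum, encoding lumican, was the one small leucine-rich proteoglycan called, and its wild type arrays disagreed. It had 12.10, 12.74 and 12.13 in Ednrb null 29, 37 and 41, 13.21, 13.25 and 13.02 in Ednrb NCC null 2, 5 and 6 and 13.22, 12.53 and 13.27 in wild type 1B, 1C and 1D. The Ednrb null arrays lay below all Ednrb NCC null arrays, and wild type 1C lay inside the range of Ednrb null. Lum was 1.79-fold lower in Ednrb null than in Ednrb NCC null (difference -0.84, SE 0.21, adjusted p = 0.037), a call that ended when Ednrb null 29 or 41 or 1 array of Ednrb NCC null was left out (adjusted p = 0.0812 to 0.145), with trend and robust eBayes (0.057) and with the Actb covariate (difference -0.78, SE 0.36, adjusted p = 0.361). Against wild type the difference in Ednrb null was -0.69 (adjusted p = 0.0943). It was -0.90 without Ednrb null 37, the highest array of its group, and -0.93 without wild type 1C. Both omissions must widen it, so the calls they gave are no test. Fmod, fibromodulin, had 10.10, 10.12 and 10.09 in Ednrb null 29, 37 and 41, 9.87, 9.92 and 9.89 in wild type 1B, 1C and 1D, and 10.19, 9.86 and 9.95 in Ednrb NCC null 2, 5 and 6. Ednrb null lay above wild type in each array, yet the difference of 0.21 was not called (adjusted p = 0.228), and the probe set is of a kind (x_at) whose probes can bind related transcripts. A second probe set, neither dim nor of this kind, gave 0.22 (adjusted p = 0.233 over all probe sets). In Ednrb NCC null against wild type that probe set gave 0.26 (0.157).

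Wild type 1C lay far below the other wild type arrays for several of these genes. It was the lowest of the 3 wild type arrays for 66.7% of members (22 of 33), beside 33% of all genes. For 59 other matrix genes, described below, the share was 61%. Ednrb NCC null 6 was as often the lowest of its group, for 66.7% of members and 28.2% of all genes. Ednrb null 29 was the lowest for 51.5% of members (17 of 33) and 30.5% of all genes. Wild type 1C lay at least 0.5 below both others for 36.4% of members (12 of 33), beside 1.96% of all genes. For the 59 other matrix genes the share was 13.6%. The 12 members were Bgn, Dcn, Lum, Thbs2, Sparcl1, Postn, Matn2, Eln, Mfap4, Mfap5, Fbln2 and Fbln5, with gaps of 0.54 to 1.1. No other array lay that far below both others of its group for any member. These 12 were listed after their values were seen.

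In 10 of the 12, all 3 Ednrb null arrays also lay below wild type 1B and 1D, and in 11 all 3 Ednrb NCC null arrays lay above wild type 1C. Of all 357 genes with wild type 1C at least 0.5 below wild type 1B and 1D, 79.3% and 88% did the same, so these counts are close to those of all genes picked in this way. Dcn, decorin, had 13.54, 12.50 and 13.53 in wild type 1B, 1C and 1D, 12.46, 12.88 and 12.53 in Ednrb null 29, 37 and 41 and 13.02, 13.39 and 13.14 in Ednrb NCC null 2, 5 and 6. Eln, elastin, had 9.92, 8.82 and 10.01 in wild type, 8.83, 9.30 and 9.10 in Ednrb null and 9.77, 9.74 and 9.44 in Ednrb NCC null. A second probe set of Eln, not dim, did not show this. It had 8.31, 8.27 and 8.48 in wild type, 8.29, 8.14 and 8.31 in Ednrb null and 8.27, 8.38 and 8.29 in Ednrb NCC null. By the brightest probe set of both genes, wild type 1C was at or near the Ednrb null level. Ednrb NCC null lay between it and the other wild type arrays.

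The same order held for other genes of the set. Postn, periostin, a matricellular protein of fibroblasts, had 12.25, 11.30 and 12.48 in wild type 1B, 1C and 1D, 11.15, 11.73 and 11.49 in Ednrb null and 12.13, 11.86 and 11.81 in Ednrb NCC null. Thbs2, a thrombospondin, had 10.86, 10.16 and 10.83 in wild type, 10.07, 10.11 and 10.12 in Ednrb null and 10.70, 10.62 and 10.58 in Ednrb NCC null. Fbln5, the fibulin that carries elastin onto microfibrils, had 9.90, 8.97 and 10.32 in wild type, 9.18, 9.30 and 9.27 in Ednrb null and 9.68, 9.67 and 9.52 in Ednrb NCC null. For Fbln2, by contrast, wild type 1C at 8.25 was below every other array (8.93 to 9.44), and Ednrb null, at 8.93, 9.35 and 9.41, overlapped with the 9.35 and 9.44 of wild type 1B and 1D.

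**Figure D4:**
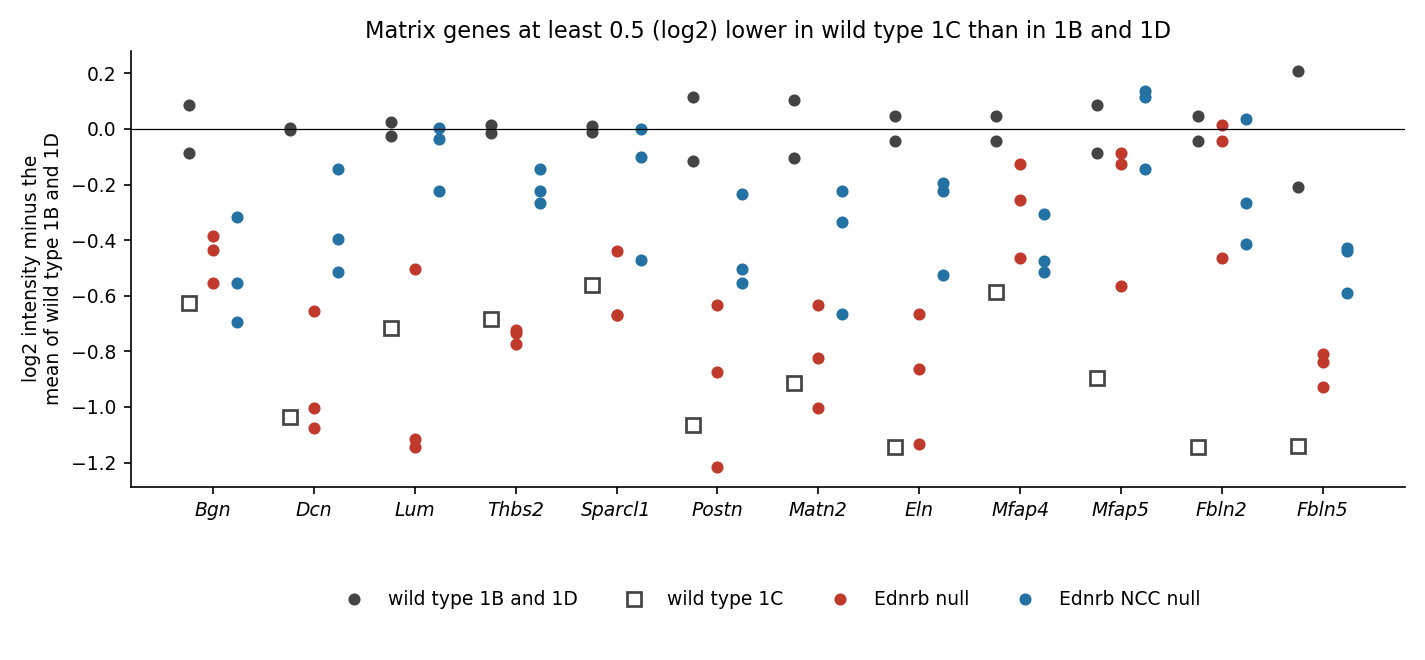
Log2 intensity minus the mean of wild type 1B and 1D for the 12 matrix genes at least 0.5 lower in wild type 1C than in both; each point is an array, and the open square is wild type 1C. In 10 genes all Ednrb null arrays lie below wild type 1B and 1D, and in 11 all Ednrb NCC null arrays lie above wild type 1C.

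Without wild type 1C, 9 members were lower and 2 higher in Ednrb null than in wild type, where 6.06% of all genes were called (3.42% lower, 2.63% higher). With all arrays the counts were 1 and 1, where 2.39% and 2.65% were called. Besides Spon1, the lower ones were 8 of the 12 picked for a low wild type 1C, for which its omission must lower the difference and narrow the wild type spread, so their calls are no test and no p is given. Their differences without and with the array were -0.91 and -0.57 for Dcn, -0.93 and -0.69 for Lum, -0.74 and -0.51 for Thbs2 and -0.59 and -0.40 for Sparcl1. For Postn they were -0.91 and -0.55, for the matrilin Matn2 -0.83 and -0.52, for Eln -0.88 and -0.50 and for Fbln5 -0.86 and -0.48. All 8 were negative either way. The 2 higher were Hapln1, also called with all arrays, and Tgfbi. Wild type 1C was the highest wild type array for both, so their calls without it are no test either. The median of the 33 was -0.24 without wild type 1C and -0.142 with it.

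In Ednrb NCC null the same omission gave 6 calls in place of 3, where 3.58% of all genes were called (2.29% higher, 1.3% lower). The difference of Hapln1 was then 0.55 in place of 0.35, and that of Thbs1, a thrombospondin that activates TGF-beta, -0.58 in place of -0.40. Wild type 1C was the highest wild type array for Hapln1 and the lowest for Thbs1. Its omission must widen both differences, so these calls are no test either. Bgn, biglycan, one of the 12, stood at -0.52 without the array and -0.31 with it. None of Dcn, Lum, Postn, Eln and Fbln5 was called there. Between the mutants, where wild type enters only through the shared spread, the differences of Dcn (-0.56), Thbs2 (-0.53) and Eln (-0.57) were the same with and without it, and the narrower spread made 5 lower and 4 higher where 7.2% of all genes were called (4.98% lower, 2.22% higher). With these 2 groups fitted alone, a fit that holds no wild type array, Dcn (adjusted p = 0.0357), Eln (0.036), Thbs2 (0.00507) and Fbln5 (-0.37, 0.0338) were also lower in Ednrb null. A second probe set of Thbs2 was lower there as well in the fit of all 3 groups (-0.83, adjusted p = 0.0316 over all probe sets). In that fit the second probe set of Dcn gave -0.60 (0.316) and that of Eln -0.07 (0.765), and neither was called.

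**Figure D5:**
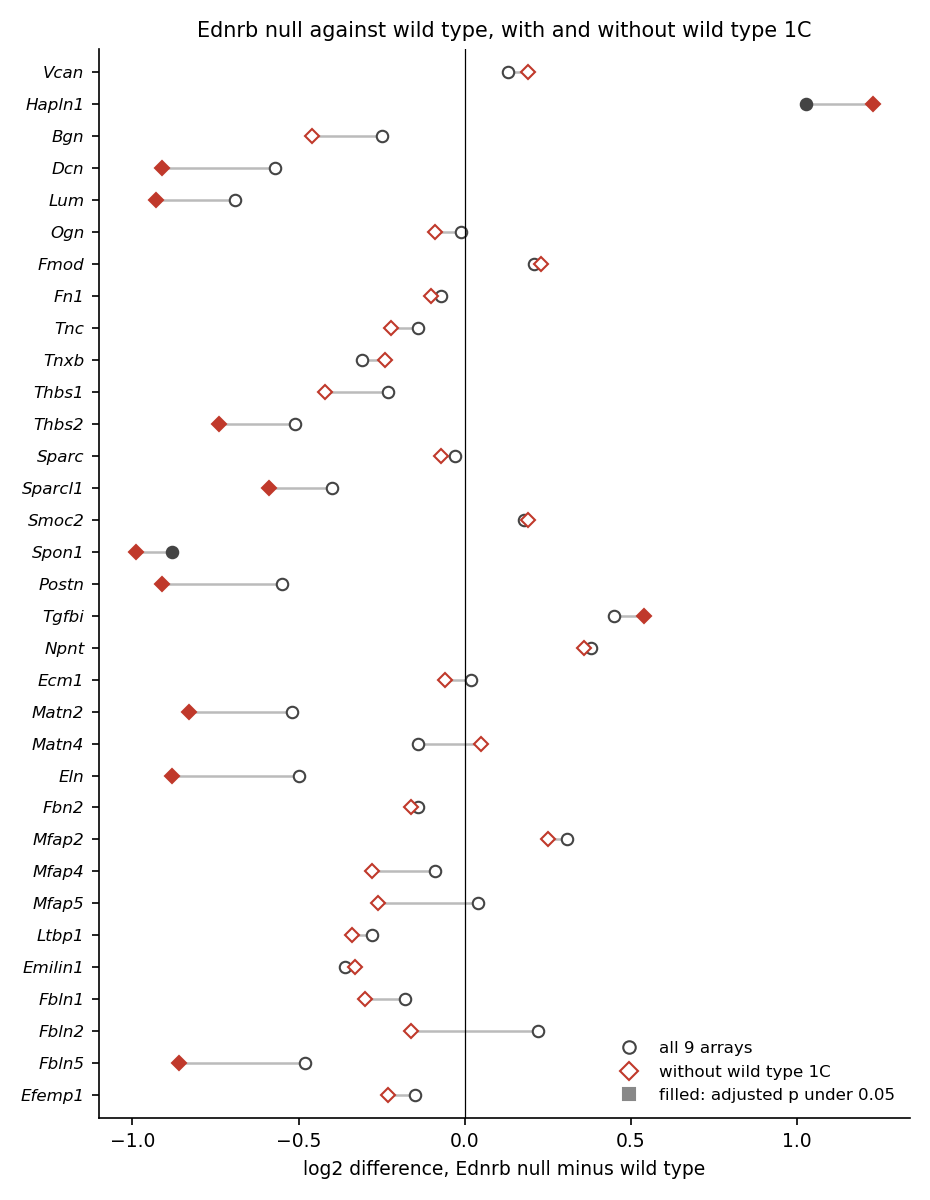
Log2 difference of Ednrb null from wild type for the 33 matrix genes, with all 9 arrays (circles) and without wild type 1C (diamonds); filled symbols have an adjusted p under 0.05. Leaving out this array gives 9 filled diamonds below 0 and 2 above, against 1 filled circle on each side. Of the 9, 8 are genes picked for a low wild type 1C, so their filling is no test. For the 2 above 0 wild type 1C was the highest wild type array, so the same holds.

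Wild type 1C was also the array lowest in Xist, at 6.70 against 11.60 to 14.07 elsewhere. The mean log2 level of the 33 members was 10.26 in it and 10.57 and 10.66 in wild type 1B and 1D, while the visceral smooth muscle markers stood at 11.09 beside 11.21 and 11.35 and the epithelial markers at 10.56 beside 10.53 and 10.68. Skeletal muscle markers, all dim, stood at 5.61 beside 6.07 and 6.48, and mesothelial markers at 7.98 beside 6.2 and 7.70. Its Actb ratio of 1.08 was above all Ednrb null arrays. The part of the sex or the cell makeup of this sample in its matrix levels was not tested.

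Between the mutants, markers of other tissues moved beside the matrix genes. Of 10 epithelial markers 7 were lower in Ednrb null than in Ednrb NCC null, with summed intensities of 23900 to 32800 and 38700 to 44900 and only Cdx2 dim. Of 8 smooth muscle markers 2 were lower, Cnn1 and Tagln, with sums of 33100 to 42800 and 47400 to 54600 and none dim. Another of the 8, Myocd, was higher without being called, at 9.44 to 9.91 against 8.99 to 9.41 in Ednrb NCC null. Macrophage markers were lower in 3 of 10 cases, with sums of 2940 to 3660 and 4310 to 4680 and Fcgr1 and Cx3cr1 dim. The Ednrb null sums did not overlap with those of Ednrb NCC null in these lists, and their part in the matrix differences was not tested. Of 6 red blood cell markers 2 were higher. Sums of all 6 were 26300 to 28700 in Ednrb null, 20800 to 22800 in Ednrb NCC null and 17600 to 24400 in wild type. Of the 6 differences between the mutants 3 were positive and 3 negative, and Hba-a1 and Epb42 were dim. Under the Actb covariate limma called 0 members in Ednrb null against wild type, with 5 at an unadjusted p under 0.05 (4 higher, 1 lower), and 0 between the mutants, with 8 (7 higher, 1 lower). In Ednrb NCC null against wild type 5 members were called with the covariate, where 703 of all genes were higher and 244 lower.

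Other matrix genes, 59 measured of 63 listed with earlier results known, had calls near the shares of all genes given above. In Ednrb null against wild type 3 of the 59 were higher and 1 lower, in Ednrb NCC null 3 and 2, and between the mutants 1 and 3. The one lower in Ednrb null was Lox, the lysyl oxidase that cross-links elastin and collagen. It had 12.32, 11.20 and 12.32 in wild type 1B, 1C and 1D, 10.71, 11.05 and 11.03 in Ednrb null and 11.76, 11.83 and 11.55 in Ednrb NCC null, with wild type 1C again nearest to Ednrb null. Lox was 2.03-fold lower than in wild type (difference -1.02, SE 0.25, adjusted p = 0.0401), and none of the other 10 measured elastic fibre assembly genes passed in any comparison.

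Among other glycoproteins Thbs4, a thrombospondin, rose in both mutants, by 0.64 (adjusted p = 0.0388) and 0.72 (adjusted p = 0.0241), and Smoc1, a relative of Smoc2, rose by 0.80 in Ednrb null (adjusted p = 0.0264). Frem1, a basement membrane protein, fell by 0.64 in Ednrb NCC null (adjusted p = 0.0113) and was 0.69 higher in Ednrb null than there (adjusted p = 0.00581), and the dim Tnn, tenascin-N, was lower in Ednrb null than in Ednrb NCC null (-0.65, adjusted p = 0.0322). Among other proteoglycans Kera, keratocan (-1.10, adjusted p = 0.024), and the dim Prelp (-0.97, adjusted p = 0.0044) were lower in Ednrb null than in Ednrb NCC null, Spock1 rose by 0.87 (adjusted p = 0.0332) and Spock2 fell by 0.66 (adjusted p = 0.0419) in Ednrb NCC null against wild type. Of the hyaluronan genes the receptor gene Lyve1, known from lymphatic vessels and some macrophages, was higher in both mutants, by 0.77 (adjusted p = 0.0325) and 1.40 (adjusted p = 0.0019), and is dim; of 10 macrophage markers 2, Pf4 and Mrc1, were also higher in Ednrb NCC null than in wild type (1.09 and 0.68). Has2, the main hyaluronan synthase of embryos, stood at 7.72 ± 0.33 in Ednrb NCC null, 8.19 ± 0.09 in wild type and 8.16 ± 0.06 in Ednrb null (SD, n = 3), and it was not called (difference of Ednrb NCC null from wild type -0.47, adjusted p = 0.0857).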

How the data were processed

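RNA of 9 hindgut samples, 3 per group, was labelled from 150 ng of total RNA per the labels' protocols. The authors deposited an intensity for every probe set on each array, which the submitters' processing notes credit to RMA; for its version and the chip definition, nothing is given in the sources used here. The values were on a linear scale, from 5.69 to 61637, and were turned to log2 with no pseudocount, filter or further normalization.

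Of 45101 probe sets, 64 were controls, 34945 had 1 gene in the platform table of gene names, 932 several and 9160 none. The brightest probe set naming 1 gene alone was taken for each of 18193 genes, of which 18032 matched a RefSeq table of GRCm38.p6 by Entrez ID. Means per group over all 9 arrays were fitted with limma 3.58.1 in R 4.3.3 (lmFit, eBayes without trend), 2-sided, adjusted by Benjamini-Hochberg over all genes. The fit was tested on simulated data.

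The members, the gene lists and the alternatives were chosen with earlier results of these data known. Values in all arrays were to be given for called members and, in each role, the 2 others with the smallest p; members given so beyond this rule (Fn1, Tnc, Eln, Postn and Fbln2), Npnt, Smoc2 and the second probe sets were chosen after their values were seen. Arrays have no depth in reads, and their number limits the precision. Alternatives were centring, quantile normalization, no dim genes, the mean of all probe sets, 2 groups alone, trend and robust eBayes, array weights, the Actb ratio as a covariate, an adjusted p under 0.10 and leaving out each array.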

Additional observations from a re-analysis of the deposited data

Results flagged for a closer look

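For 6 members the difference from wild type itself differed between the mutants, which is the difference between the mutants, since they share the wild type arrays. In Ednrb null minus Ednrb NCC null it was 0.41 for Vcan (limma adjusted p = 0.043), 0.68 for Hapln1 (0.0266), -0.84 for Lum (0.037), -0.85 for Tnxb (0.00356), 0.41 for Mfap2 (0.0417) and 0.89 for Efemp1 (0.00282). The groups of 3 arrays did not overlap for any of the 6. Those of Tnxb and Efemp1 were called with any 1 array left out, while the other 4 were lost without at least 5 of the 9 arrays, each left out alone. With the Actb ratio as a covariate all 6 missed the threshold, with adjusted p = 0.052 to 0.361, while the differences were 0.41, 0.65, -0.78, -0.99, 0.44 and 1.01 in the same order and the standard errors grew. The ratio did not overlap between Ednrb null and the other arrays, so the lost calls do not show what part RNA quality has in the differences.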

How the results depend on the processing

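The counts over all genes moved with the setting too, and stand in brackets below, higher and then lower. In Ednrb null against wild type 2 members were called (482, 435). There was 1 without the dimmest 40% of genes (455, 354), 0 with the Actb ratio as a covariate (49, 82) and 5 at an adjusted p under 0.10 (813, 646). Leaving out 1 array gave from 1, without Ednrb null 29 (237, 240), to 11, without wild type 1C (479, 623). In Ednrb NCC null against wild type 3 were called (674, 228). There was 1 without the dimmest genes (674, 211) and 5 with the Actb ratio (703, 244). Leaving out 1 array gave 1 without Ednrb NCC null 5 (230, 104), Ednrb NCC null 6 (172, 96) or wild type 1B (213, 139). The most was 6, without wild type 1C (416, 236). Between the mutants 6 were called (376, 811), 0 with the Actb ratio (43, 172) and 9 with the 2 groups alone (397, 902). Leaving out 1 array gave 2 without Ednrb null 29 (128, 393), Ednrb null 41 (172, 415), Ednrb NCC null 5 (137, 476) or Ednrb NCC null 6 (132, 375). The most was 9, without wild type 1C (403, 906). The median difference between the mutants moved from 0.05 to 0.21 with the Actb ratio. Fewer genes are tested without the dimmest, which removes Tnxb, Spon1 and Mfap5; the cause of the other shifts was not tested. The median differences otherwise moved by less than the spread between arrays, and no called member changed sign in any alternative run. No paired analysis was possible because the groups share no replicate numbers. Dim probe sets limit what can be said of Spon1 and Tnxb.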
